A study of Mus musculus with 384 samples.

Results

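The 32 genes described here encode enzymes and transporters of glycolysis, the pentose phosphate pathway and the pyruvate dehydrogenase step, together with Hif1a. They were chosen by name as pathway members, by a rule that uses no measured value, though earlier results of these data were known when the list was made. All 32 were found among the 46078 gene rows of the count tables. They took up 0.968%, 0.966% and 0.910% of the reads on genes in the 3 BCR-ABL sets, compared with 0.844% for Control.

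Glycolysis splits glucose into pyruvate and yields ATP without oxygen, and lactate dehydrogenase and the monocarboxylate transporters then turn pyruvate into lactate and carry it out of the cell. The pentose phosphate pathway branches off after hexokinase and makes NADPH and ribose, and NADPH feeds the oxidase with which mature neutrophils and monocytes kill microbes. Many steps have several isozymes with different regulation, and the transcription factor HIF1 drives many of these genes when oxygen is low.

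The cells were granulocyte/macrophage progenitors (GMPs), the bone marrow precursors of neutrophils and monocytes, sorted singly as lineage-negative, c-Kit+, Sca-1-, CD34+ and FcγR+ and profiled by SMART-seq2, a full-length single-cell RNA-seq method. BCR-ABL sets 1, 2 and 4 came from C57Bl/6 Scl-tTA::TRE-BCR/ABL mice, in which a transactivator driven by an Scl element switches on the leukaemia fusion oncogene once doxycycline is withdrawn. The protocol gives 20 mg/L doxycycline in the drinking water, its removal when the mice were 5 weeks old, and cell collection after another 5 to 6 weeks. The single Control set was also C57Bl/6, its genotype was not given in the sources used here, and the labels do not say whether a set is 1 animal, so the p-values measure only the spread between sets.

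Each set had 96 wells, of which 76, 61, 92 and 94 gave a usable cell in BCR-ABL sets 1, 2 and 4 and Control. The median reads on genes of a cell were 1649313, 2084608, 1385349 and 1200639. Mpo, Elane and Prtn3, granule genes that define GMPs, had reads in 100% of the kept cells of every set. Markers of other lineages were low: the summed level of 8 erythroid genes was 17.9 to 36.5 CPM (CPM are a gene's reads scaled to 1000000 reads on genes) and that of 5 lymphoid genes 0.799 to 1.39 CPM. Macrophage markers summed to 26.4, 40.7, 95.9 and 11.1 CPM and basophil and mast cell markers to 239, 476, 266 and 378 in sets 1, 2, 4 and Control. Eosinophil markers summed to 1255 CPM in set 4 and to at most 5.46 elsewhere, and 4 cells, 1 in each set, stood out with at least 10000 CPM of eosinophil or of basophil and mast cell markers. Markers of fate and of early progenitors differed between sets. The sums of 8 monocyte-primed markers were 5043, 5763 and 4525 CPM in the BCR-ABL sets, compared with 7566 for Control. Those of 10 neutrophil-primed markers were 65836, 62249 and 69516 against 56421, though Mpo and Prtn3 lay on both sides of the Control. Those of 5 early progenitor markers were 444, 454 and 539 against 716. Of these, Cd34 (146, 180.5 and 158 against 440.1) and Meis1 lay below the Control in every set, and Hlf, Flt3 and Kit above. The part of these marker differences in the differences over all cells was not tested. The members are also given within fate classes further on. A sum over cells does not tell fewer cells with a transcript from less transcript in each cell.

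The promoters of the genes on which the results turn are shown here first. RefSeq's promoter table (GRCm38.p6) holds 31 of the 32 genes, Slc2a3 being the exception, each from 250 bases before to 50 after a gene's start. They were picked after their values were seen. Ldha and Tpi1 are shown as the pair whose reads went together most closely from cell to cell, Slc16a3 as the gene that differed most between BCR-ABL and Control cells, and G6pdx as the gene with the smallest p between fate classes. Capitals mark the core letters of the HIF1 binding motif, ACGTG or GCGTG, read on both strands, and a CACGTG E-box (the letters bound by MYC) contains that core on both strands.
Ldha, chr7:46845554-46845853, + strand: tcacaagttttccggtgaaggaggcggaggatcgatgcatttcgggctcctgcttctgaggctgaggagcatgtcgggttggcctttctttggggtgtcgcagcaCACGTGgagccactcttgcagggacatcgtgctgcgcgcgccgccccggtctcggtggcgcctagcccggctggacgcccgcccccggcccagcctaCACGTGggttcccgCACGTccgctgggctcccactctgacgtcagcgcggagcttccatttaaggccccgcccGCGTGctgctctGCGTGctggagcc
Tpi1, chr6:124814109-124814408, - strand: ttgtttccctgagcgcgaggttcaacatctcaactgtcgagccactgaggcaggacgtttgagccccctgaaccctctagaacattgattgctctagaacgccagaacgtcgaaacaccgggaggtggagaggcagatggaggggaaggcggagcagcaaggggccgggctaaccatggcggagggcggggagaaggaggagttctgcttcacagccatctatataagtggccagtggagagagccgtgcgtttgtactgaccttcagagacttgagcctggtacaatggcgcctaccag
Slc16a3, chr11:120948817-120949116, + strand: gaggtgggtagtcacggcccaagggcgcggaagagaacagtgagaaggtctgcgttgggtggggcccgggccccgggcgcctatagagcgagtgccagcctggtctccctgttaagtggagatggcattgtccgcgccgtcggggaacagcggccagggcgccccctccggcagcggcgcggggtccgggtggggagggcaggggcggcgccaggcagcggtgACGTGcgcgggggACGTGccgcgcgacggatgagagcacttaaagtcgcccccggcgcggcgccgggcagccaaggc
G6pdx, chrX:74428831-74429130, - strand: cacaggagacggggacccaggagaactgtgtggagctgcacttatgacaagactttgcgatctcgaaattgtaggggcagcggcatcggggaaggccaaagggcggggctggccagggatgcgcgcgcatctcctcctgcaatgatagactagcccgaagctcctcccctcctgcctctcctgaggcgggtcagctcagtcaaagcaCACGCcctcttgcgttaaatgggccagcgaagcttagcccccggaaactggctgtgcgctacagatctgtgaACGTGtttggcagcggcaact
The Ldha window, the first of 2 that RefSeq gives for this gene, held 7 matches and 2 E-boxes, Slc16a3 and G6pdx held 2 matches each, and Tpi1 held 0. Among all 32851 promoters given by RefSeq, 43.8% held at least 1 match, 7.15% an E-box and 0.301% at least 7 matches, while 37 of the 45 promoters of these genes held at least 1. A match describes letters only and is not a bound site.

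Per kilobase of exon length and averaged over the 4 sets, the highest were Aldoa, the aldolase of the middle of glycolysis, at 375 CPM per kilobase, Ldha at 307, Taldo1 (transaldolase) at 262 and Tpi1 (triosephosphate isomerase) at 202. Pkm (pyruvate kinase, 175), Tkt (transketolase, 156), Gpi1 (153) and Hk3 (122) followed. The length is that of all annotated exons of a gene joined together, not of 1 transcript, so the ranking depends on the annotation. Taldo1, with 2171 exon bases, ranked above Tkt, with 7355, although its CPM were 548 to 602 against 946 to 1271. At the low end stood Pfkfb4 at 3.38, Slc2a3 at 1.39 and Aldoc at 0.0561, and Aldoc rested on reads in at most 4 cells of a set. The highest levels belonged to enzymes of the trunk and of the pentose phosphate pathway, and the lowest to transporters, regulators and minor isozymes. The order was not strict: the trunk enzymes Pgam1 (22.5), Pgk1 (14.2) and Gapdh (13.4) stood below the transporter Slc16a1 (39.7) and the kinase Pdk3 (38.9).

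Counts of some members are uncertain because near-identical copies share their reads. Gapdh has 77 copies in the annotation, 75 of them pseudogenes, and its 45.7 to 65.6 CPM are low for this enzyme. The pseudogene Gm1840 held 779, 692, 887 and 578 CPM in BCR-ABL sets 1, 2, 4 and Control, beside 1049, 930, 1197 and 784 for Gpi1 itself. Gm6560 held 157 to 190 CPM beside Pkm at 771 to 922. Tpi1, Pgk1, Pgam1, Eno1, Ldha and Ldhb also have such copies, at levels well under the parent's. The copies of Gapdh summed to 15.5 to 19.5 CPM, also under the parent's level. A low level of the copies therefore does not show that a parent's count is complete. Pgk1, at 28.6 to 33.3 CPM, and Pgam1, at 41.7 to 49.7, were as low as Gapdh or lower. Slc2a1, Hk1, Hk3, Gpi1, Pfkm, Pfkp, Aldoa, Tpi1, Gapdh, Pdha1, G6pdx and Hif1a each overlap a gene on the opposite strand. Without a stated strand setting, reads in the overlap cannot be told from those of that gene. In bases the overlap ranged from 25 of 2911 exon bases in Aldoa to 748 of 13401 in Pfkp. Relative to exon length it was larger in some others, among them Pdha1 (603 of 3734), G6pdx (418 of 3080) and Gpi1 (741 of 6452).

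**Figure D1:**
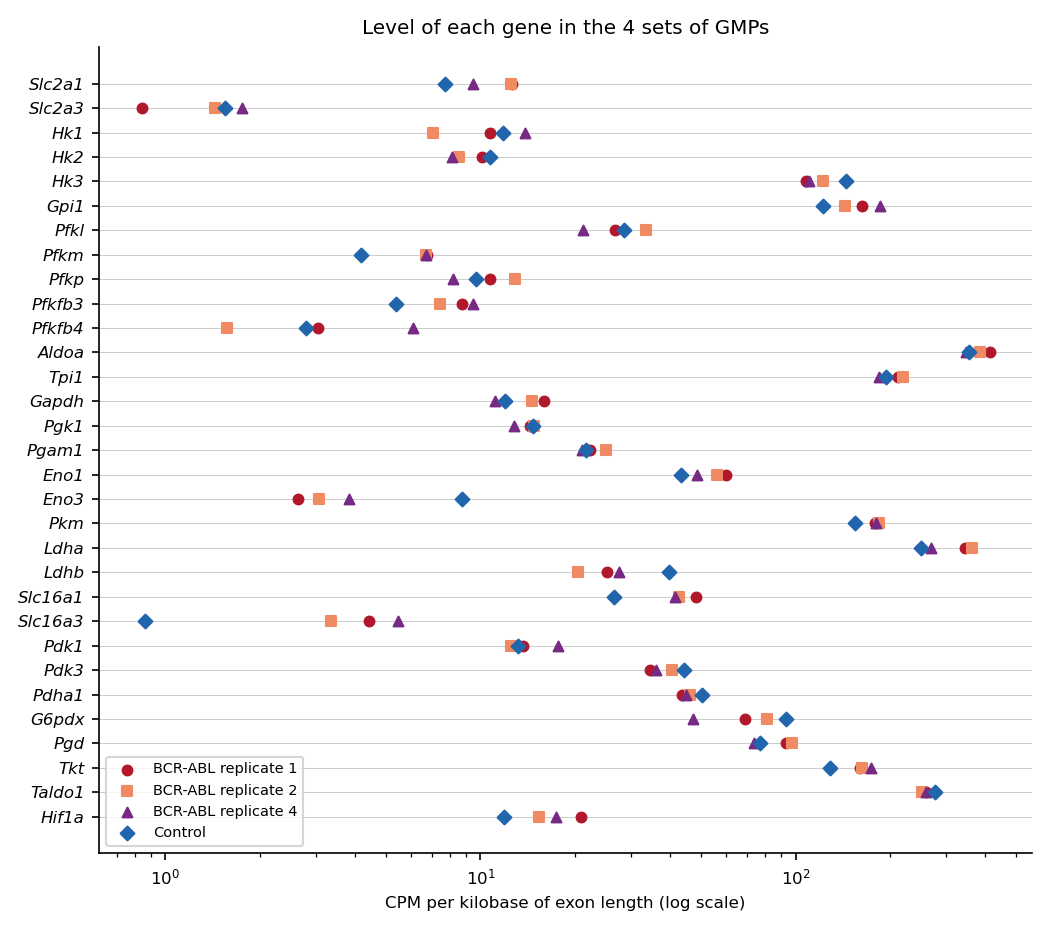
Level of each gene in CPM per kilobase of exon length (horizontal log axis) in BCR-ABL sets 1, 2 and 4 and the Control set, 1 point a set, in pathway order from uptake (top) to Hif1a. Aldoc, near 0, is left out. Slc16a3 and Eno3 show the widest gaps between the Control point and the others.

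The first comparison asked how BCR-ABL GMPs differed from Control GMPs over all kept cells. Slc16a3, Slc16a1, Pfkfb3, Pfkm, Tkt and Gpi1 stood higher in every BCR-ABL set, and Eno3 and Ldhb lower, and none of them passed the test. Over all genes edgeR's quasi-likelihood test called 0 of 20324 genes (0%) at an adjusted p under 0.05, with a smallest adjusted p of 0.594, and 1459 (7.18%) were below 0.05 before adjustment. Among the 32 members 8 were below 0.05 before adjustment, 6 on the higher and 2 on the lower side. With DESeq2 557 genes (2.74%) were called, including Slc16a3 and Slc16a1 as higher and Eno3 as lower. With limma 0 were called, and 856 on the higher and 796 on the lower side were below 0.05 before adjustment. The spread in this fit comes from the BCR-ABL sets alone, and with 1 Control set its condition cannot be told apart from that set.

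By side, all 3 BCR-ABL sets lay above the Control set for 11 members, below it for 8 and on both sides for 13. Over all genes tested these shares were 23.2% above and 27.8% below. The median log2 fold change was 0.15 over the members and 0.05 over all genes tested, with 20 members positive and 12 negative. Leaving out BCR-ABL set 4 put 11 members on the higher and 2 on the lower side with p below 0.05 before adjustment, beside 8.48% of all genes. Leaving out set 1 put 2 and 1 there, beside 5.32%, and leaving out set 2 put 5 and 1, beside 7.58%. Leaving out the 4 cells rich in eosinophil or mast cell transcripts gave 6 and 2 again, beside 7.26%.

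**Figure D2:**
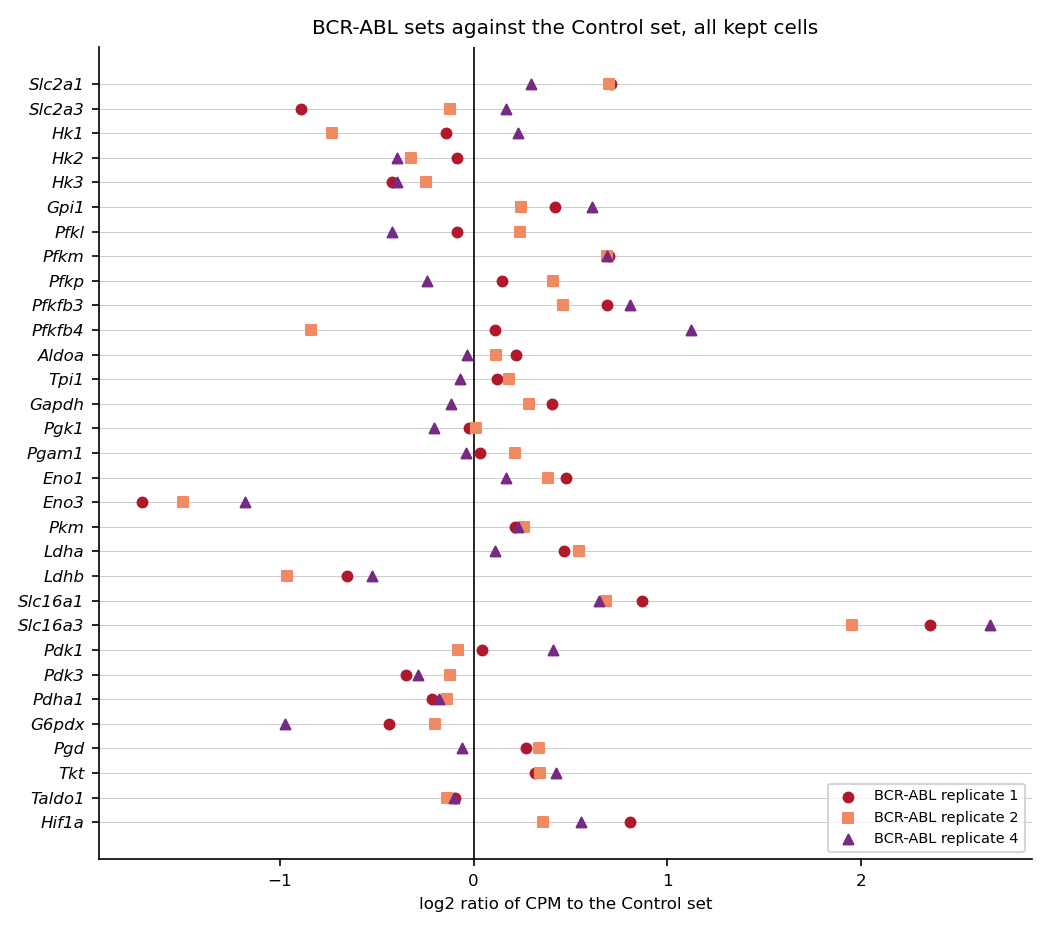
Log2 ratio of CPM in each BCR-ABL set to the Control set (horizontal axis, line at 0), all kept cells, for 31 genes in pathway order with Aldoc left out. Slc16a3 lies farthest to the right and Eno3 farthest to the left in all 3 sets, and the enzymes from Aldoa to Pgam1 lie close to 0.

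Glucose enters the cell through facilitative transporters. Slc2a1 (GLUT1, chromosome 4, 119108711 to 119137983) stood at 44.2, 43.8 and 33.2 CPM in BCR-ABL sets 1, 2 and 4 and at 27 in the Control set. All 3 sets lay above the Control, with a log2 fold change of 0.60 (SE 0.27, edgeR unadjusted p = 0.0844). Slc2a3 (GLUT3) stood at 6.09, 10.4 and 12.7 CPM against 11.3, so the groups overlapped. It had reads in 15.4%, 22.2% and 24.7% of thinned cells and in 25.6% of Control cells. Slc2a1 made up 93.8%, 89.7% and 84.4% of the reads per kilobase of the pair against 83.2%, and the lowest BCR-ABL share was close to the Control.

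Hexokinases trap glucose as glucose 6-phosphate. Hk3, the isozyme typical of myeloid cells, stood at 399, 451 and 407 CPM against 535 in the Control, all below it, with a log2 fold change of -0.34 (SE 0.14, edgeR unadjusted p = 0.0614). Hk1 stood at 90.9, 60.5 and 118 CPM against 100.5 and overlapped. Hk2, the inducible isozyme of growing cells, stood at 60.2, 50.9 and 48.5 CPM against 63.8. Hk3 carried 83.9%, 88.7% and 83.4% of hexokinase reads per kilobase against 86.6%, so the mix of the 3 isozymes did not separate the groups. Gpi1, which turns glucose 6-phosphate into fructose 6-phosphate, was above the Control in all sets (log2 fold change 0.45, SE 0.16, edgeR unadjusted p = 0.0454), and its pseudogene differed to the same side.

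Phosphofructokinase is the committed step of glycolysis. Pfkm (muscle type, chromosome 15, 98092589 to 98132451) stood at 22.6, 22.4 and 22.4 CPM against 13.9. The BCR-ABL sets lay almost on top of each other and above the Control, with a log2 fold change of 0.71 (SE 0.23, edgeR unadjusted p = 0.0305). Pfkl (liver type) stood at 179, 224 and 142 CPM against 189.9 and Pfkp (platelet type) at 144, 173 and 110.1 against 130.1, and both overlapped. Pfkl was the main isozyme everywhere, with 60.5%, 63.1% and 58.7% of reads per kilobase against 67.2%. Pfkm took 15.2%, 12.6% and 18.6% against 9.85%, so in each BCR-ABL set the muscle type had a larger and the liver type a smaller share than in the Control. These shares were not tested.

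Pfkfb3 and Pfkfb4 make and break fructose 2,6-bisphosphate, the strongest activator of phosphofructokinase. Pfkfb3 (chromosome 2, 11471433 to 11554077) stood at 65.9, 56.4 and 71.7 CPM against 40.9 (BCR-ABL mean 64.6 ± 7.72 CPM, SD, n = 3). All sets were above the Control, with a log2 fold change of 0.68 (SE 0.21, edgeR unadjusted p = 0.0247). Pfkfb4 stood at 14.8, 7.66 and 29.8 CPM against 13.7. It was the most uneven of the regulators, with reads in 40.8%, 19.7%, 64.1% and 26.6% of kept cells in sets 1, 2, 4 and Control.

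Aldoa, Tpi1, Gapdh, Pgk1 and Pgam1, which carry fructose bisphosphate to 2-phosphoglycerate, all overlapped, with log2 fold changes from -0.05 to 0.23. Aldoa stood at 1203, 1119 and 1009 CPM against 1032, and Aldoc, the brain form, at 0, 0.00824 and 0.624 against 0.10, so nearly all aldolase reads were Aldoa. Eno1, the common enolase, stood at 324, 304 and 262 CPM against 233, all above the Control, with a log2 fold change of 0.37 (SE 0.19). Eno3 (beta-enolase, the muscle form, chromosome 11, 70657202 to 70662513) stood at 4.60, 5.34 and 6.67 CPM against 15.1, a BCR-ABL mean of 5.53 ± 1.05 CPM (SD, n = 3). It had the smallest p of the lower members, with a log2 fold change of -1.44 (SE 0.33, edgeR unadjusted p = 0.00946, edgeR adjusted p = 0.624, DESeq2 adjusted p = 0.0324). Eno3 thus took 4.20%, 5.15% and 7.31% of enolase reads per kilobase against 16.7%. The share of thinned cells with an Eno3 read did not separate the groups, at 21.5%, 16.7% and 25.9% against 25.6%, and 25.9% of the Control reads came from a single cell. Pkm stood at 895, 922 and 903 CPM against 771, above the Control in all sets (log2 fold change 0.25, SE 0.11).

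Lactate dehydrogenase joins pyruvate and lactate, and its A subunit favours lactate and its B subunit pyruvate. Ldha (chromosome 7, 46841475 to 46855627) stood at 1142, 1205 and 891 CPM against 826 (BCR-ABL mean 1079.5 ± 166 CPM, SD, n = 3). All 3 sets were above the Control, set 4 only narrowly, with a log2 fold change of 0.41 (SE 0.22, edgeR unadjusted p = 0.131). Ldhb (chromosome 6, 142490249 to 142507957) stood at 39.6, 31.9 and 43.2 CPM against 62.2, all below, with a log2 fold change of -0.68 (SE 0.22, edgeR unadjusted p = 0.0321). Ldhb made up 6.81%, 5.29% and 9.27% of the pair's reads per kilobase against 13.7%. The A to B balance therefore lay to the A side in each BCR-ABL set, as a described share without a test.

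Lactate leaves the cell through monocarboxylate transporters. Slc16a3 (MCT4, an exporter of highly glycolytic cells, chromosome 11, 120948480 to 120960868) stood at 23.5, 17.8 and 29.1 CPM against 4.59, a BCR-ABL mean of 23.5 ± 5.65 CPM (SD, n = 3). It had the largest difference and the smallest p among the members, with a log2 fold change of 2.37 (SE 0.40, edgeR unadjusted p = 0.00275, adjusted p = 0.594, DESeq2 adjusted p = 2.46e-07). The share of cells with the transcript differed as well: 67.7%, 51.9% and 66.7% of thinned cells in sets 1, 2 and 4 had a read, with exact 95% intervals of 54.9% to 78.8%, 37.8% to 65.7% and 55.3% to 76.8%. In the Control set it was 15.6% (8.77% to 24.7%), and unthinned shares were 64.5%, 50.8%, 66.3% and 17%. The intervals cover counting error within a set only. Slc16a1 (MCT1, chromosome 3, 104638668 to 104658462) stood at 214, 188 and 183 CPM against 117 (BCR-ABL mean 195 ± 16.5 CPM, SD, n = 3). All lay above the Control, with a log2 fold change of 0.75 (SE 0.18, edgeR unadjusted p = 0.0109, DESeq2 adjusted p = 0.0133). Slc16a1 remained the main transporter, and Slc16a3 took 8.40%, 7.29% and 11.7% of the pair's reads per kilobase against 3.15%.

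Pyruvate dehydrogenase turns pyruvate into acetyl-CoA inside the mitochondrion and is shut off by its kinases. Pdha1, its catalytic subunit, stood at 163, 172 and 167 CPM against 189. Pdk1 stood at 106, 97.3 and 137 CPM against 103 and overlapped, and Pdk3 at 88.6, 104 and 92.5 against 113. Pdk3 was the larger share of the pair everywhere, at 71.8%, 76.4% and 67.2% against 77%, and set 2 was close to the Control. The log2 fold changes were -0.16 for Pdha1, 0.15 for Pdk1 and -0.24 for Pdk3.

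The oxidative arm of the pentose phosphate pathway starts with G6pdx (glucose 6-phosphate dehydrogenase, chromosome X, 74409483 to 74429194). It stood at 212, 250.1 and 146 CPM against 287 (BCR-ABL mean 203 ± 52.9 CPM, SD, n = 3), all below the Control, with a log2 fold change of -0.48 (SE 0.33, edgeR unadjusted p = 0.215). Pgd, the next NADPH-making enzyme, stood at 600.2, 629 and 477 CPM against 497 and overlapped. Tkt of the non-oxidative arm stood at 1179.9, 1199 and 1271 CPM against 946, with little spread among the BCR-ABL sets (mean 1217 ± 48.3 CPM, SD, n = 3) and a log2 fold change of 0.38 (SE 0.10, edgeR unadjusted p = 0.0148). Taldo1 stood at 563, 548 and 562 CPM against 602. Of the members, G6pdx, Pgk1, Pdk3 and Pdha1 lie on the X chromosome, and Xist, made from the inactive X, stood at 324, 0, 0.156 and 461 CPM in sets 1, 2, 4 and Control. Its part in these 4 values was not tested.

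Hif1a, the regulated subunit of HIF1, stood at 123, 90.1 and 103 CPM against 70.2. All sets were above the Control, with a log2 fold change of 0.61 (SE 0.24, edgeR unadjusted p = 0.0590).

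**Figure D3:**
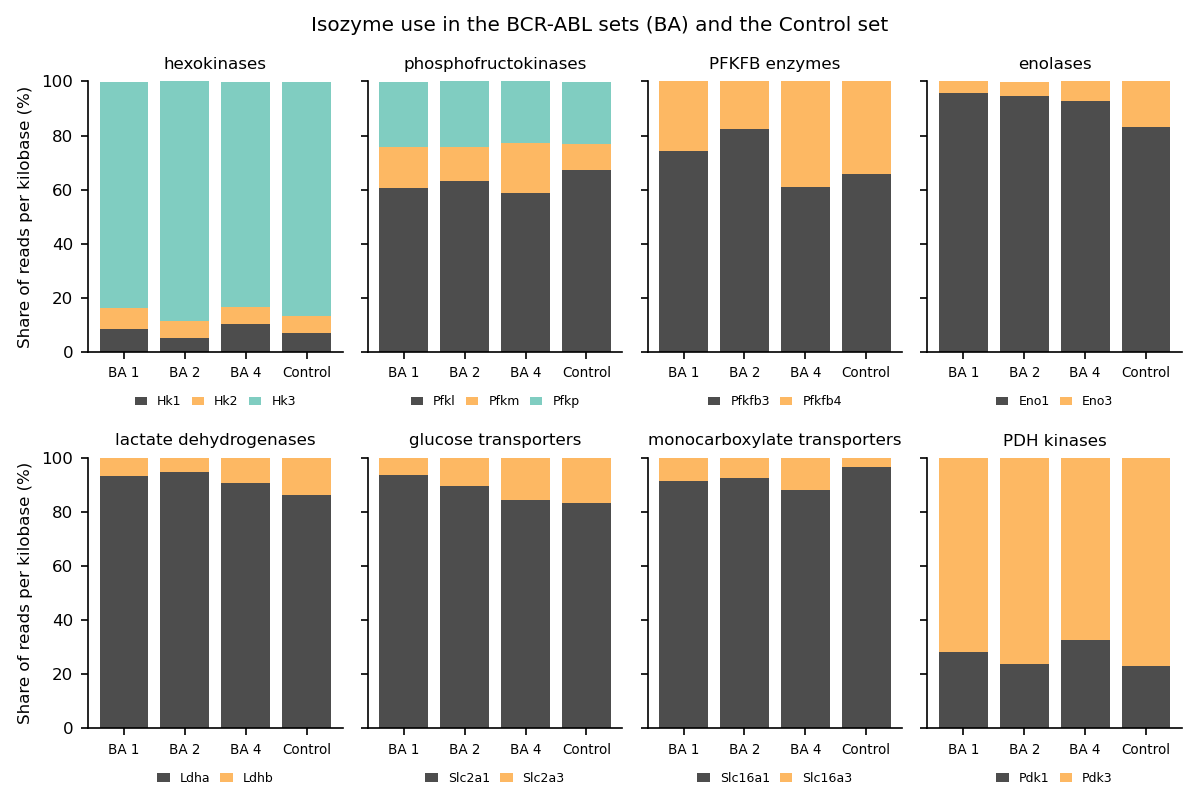
Share of each isozyme in the reads per kilobase of exon length of its group (vertical axis, percent), 1 bar for each BCR-ABL set (BA) and the Control set. Eno3, Ldhb and Slc2a3 take a larger share in the Control bar than in any BCR-ABL bar, and Pfkm and Slc16a3 a smaller one. Aldolases, nearly all Aldoa, are left out.

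The second comparison asked how the genes differ between the fates within a set. Each cell was thinned to 674952 reads and classed by Gfi1, a factor of the neutrophil line, and Irf8, a factor of the monocyte line. Gfi1-only cells had at least 10 reads of Gfi1 and fewer of Irf8, Irf8-only cells the reverse, and mixed cells at least 10 of both. In sets 1, 2, 4 and Control there were 37, 16, 62 and 9 Gfi1-only cells, 10, 21, 13 and 26 mixed cells and 15, 13, 1 and 51 Irf8-only cells. The classes themselves thus differed in number between sets, and only BCR-ABL sets 1 and 2 had 10 or more of both single classes. With a limit of 30 reads the Control set had 10 Gfi1-only and 57 Irf8-only cells and entered too.

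Most members stood lower in Gfi1-only than in Irf8-only cells of the same set, G6pdx, Ldha and Pfkl first among them. Hk3 and Pfkfb3 stood higher. Of 31 members tested 23 had a negative and 8 a positive log2 fold change, with a median log2 fold change of -0.32 against 0.03 over all genes. Before adjustment 7 on the lower and 3 on the higher side had p below 0.05, beside 13.4% of the 14166 genes tested. edgeR with the set as a block called 0 genes over all, with a smallest adjusted p of 0.343. DESeq2 called 1105 (7.80%), among them Hk3 and Pfkfb3 on the higher side and G6pdx, Ldha, Pfkl, Pkm and Slc2a1 on the lower. With the limit of 30 reads 8 on the lower and 3 on the higher side had such a p, beside 12.3% of 15500 genes, and edgeR called 1 gene, Irf8, which defines the classes. At that limit, leaving out the Control set gave 10 on the lower and 3 on the higher side, beside 13.7% of all genes. Leaving out BCR-ABL set 1 gave 3 and 2, beside 7.85%, and leaving out set 2 gave 3 and 1, beside 6.99%.

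G6pdx had the smallest p. It stood at 133 CPM in Gfi1-only and 287 in Irf8-only cells of set 1, and at 141 and 309 in those of set 2. The log2 fold change was -1.12 (edgeR unadjusted p = 0.00165, DESeq2 adjusted p = 7.63e-07). At the limit of 30 reads the Control classes stood at 109.9 and 338, so the gap was there in each of the 3 sets.

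Ldha stood at 820.1 and 1363 CPM in set 1 and at 741 and 1594 in set 2, in the same order of classes, with a log2 fold change of -0.92 (edgeR unadjusted p = 0.00379, DESeq2 adjusted p = 1.18e-10). In the Control set at the limit of 30 reads it stood at 764 and 850.2. At that same limit it stood at 851 and 1433 in set 1 and at 701 and 1533 in set 2, so the Control's Gfi1-only value lay between those of the BCR-ABL sets and its Irf8-only value below both. Pfkl stood at 131 and 253 CPM in set 1, 164 and 285 in set 2, and 175 and 195 in the Control set at the limit of 30 reads, with a log2 fold change of -0.88 (edgeR unadjusted p = 0.00444). Pkm had a log2 fold change of -0.50 (edgeR unadjusted p = 0.0250) and Slc2a1 one of -1.20 (edgeR unadjusted p = 0.0241). Slc2a1 stood at 29.3 and 53.3 CPM in set 1 and 24.4 and 70.7 in set 2, and at 32.5 and 29 in the Control at the limit of 30 reads.

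A few genes ran the other way. Hk3 stood at 458 CPM in Gfi1-only and 283 in Irf8-only cells of set 1 and at 482 and 313 in set 2, with a log2 fold change of 0.66 (edgeR unadjusted p = 0.00520). Control cells did not show that order, with 496 and 584 CPM at the limit of 30 reads, where the log2 fold change over the 3 sets was 0.24. Pfkfb3 stood at 81.8 and 34.6 CPM in set 1, 85.3 and 45.9 in set 2 and 89.4 and 38 in the Control set at the limit of 30 reads, higher in Gfi1-only cells each time, with a log2 fold change of 1.07 (edgeR unadjusted p = 0.0135). Gpi1 stood at 1158 and 950 CPM in set 1 and 986 and 808 in set 2, with a log2 fold change of 0.28 (edgeR unadjusted p = 0.0239). Ldhb, at 44.8 and 34.9 CPM in set 1 and 69.5 and 14.9 in set 2, had a log2 fold change of 1.29 (edgeR unadjusted p = 0.114).

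Cell cycle transcripts and depth differed between the classes too. The summed level of 10 S phase genes was 2479 and 2448 CPM in Gfi1-only cells of sets 1 and 2 and 3302 and 4399.6 in their Irf8-only cells, and the median reads of a cell were 1667318 and 1460765 against 1798130 and 2595624. In the Control set at the limit of 30 reads the S phase sums were 2938 and 3333. Their part in the differences was not tested.

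**Figure D4:**
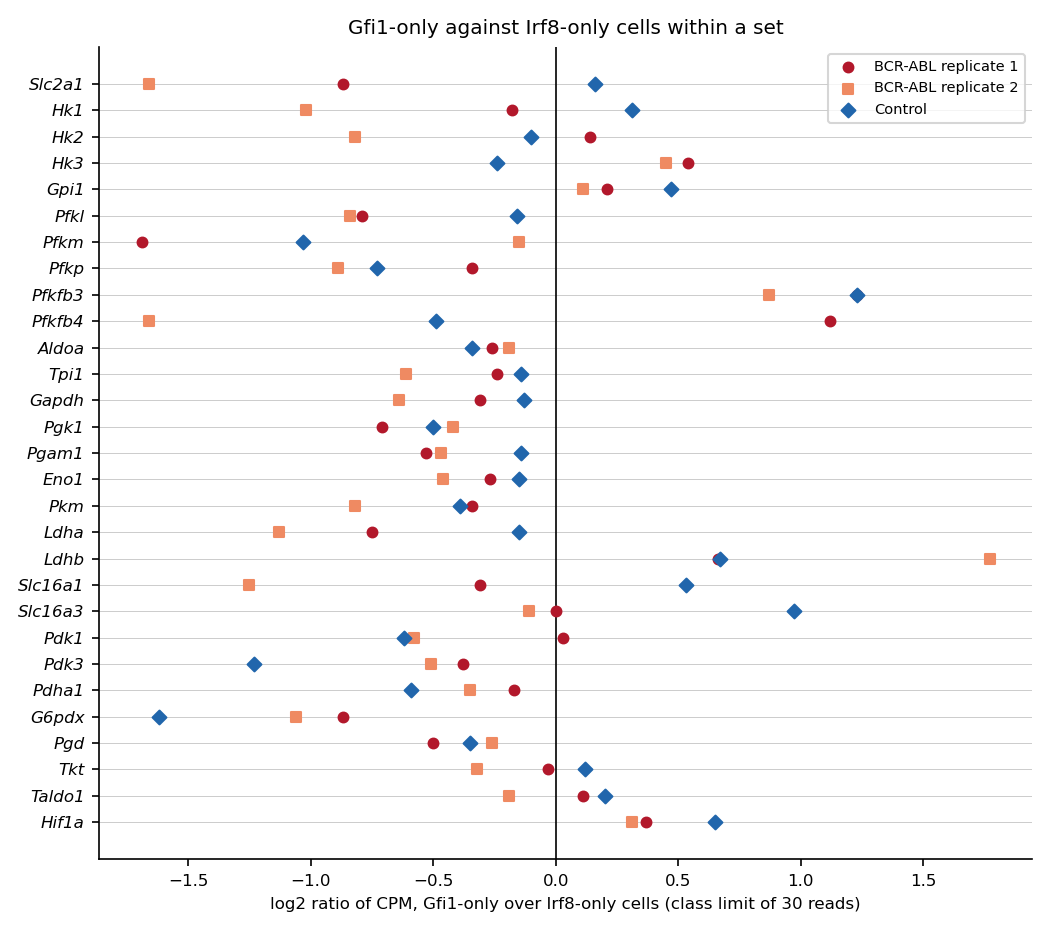
Log2 ratio of CPM in Gfi1-only to Irf8-only cells (horizontal axis, line at 0) within BCR-ABL sets 1 and 2 and the Control set, class limit of 30 reads, 1 point a set, in pathway order. Aldoc, Eno3 and Slc2a3, with 2 or fewer reads in a class of the Control set, are left out. G6pdx is left of 0 and Pfkfb3 right of 0 in all 3 sets, while Slc2a1 and Slc16a1 are left of 0 in both BCR-ABL sets and right of 0 in the Control.

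The third comparison held the class fixed and compared BCR-ABL with Control cells, with the same Control set as above. In mixed cells Ldha, Pkm, Gpi1, Tkt and both lactate transporters stood higher in the BCR-ABL sets, and Ldhb and Eno3 lower. Here 15 members stood above the Control in all 3 BCR-ABL sets and 4 below, where 21.2% and 29.4% of the 16167 genes tested did. The median log2 fold change was 0.39 over the members and 0.05 over all genes. Before adjustment 7 of the 32 members on the higher and 3 on the lower side had p below 0.05, beside 5.60% of all genes. edgeR called 0 genes, with a smallest adjusted p of 0.854, and DESeq2 called 276 genes (1.71%) and 0 members. Without BCR-ABL set 1 the counts were 5 and 1, beside 5.19% of all genes. Without set 2 they were 2 and 1, beside 4.23%, and without set 4 they were 9 and 1, beside 5.55%.

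Ldha in mixed cells stood at 1675, 1203 and 1279 CPM in sets 1, 2 and 4 against 856, with a log2 fold change of 0.73 (edgeR unadjusted p = 0.0343). Slc16a3 stood at 25.4, 19.7 and 21 CPM against 7.40 and had the largest log2 fold change of the 7 on the higher side (log2 fold change 1.61, edgeR unadjusted p = 0.0169). Pkm stood at 1194, 1017 and 1041 CPM against 800.3 and Tkt at 1288, 1250.1 and 1322 against 945. Gpi1, Pfkm and Slc16a1 also stood higher, with log2 fold changes of 0.52, 1.49 and 0.62. The lower members were Ldhb (29.5, 23.9 and 21.3 CPM against 48.6), Eno3 (5.33, 2.99 and 8.80 against 22.2) and Pfkfb4. S phase genes in mixed cells summed to 4163, 3813 and 2203 CPM against 3509.8, on both sides of the Control. Their monocyte-primed markers summed to 4516, 6621 and 5083 CPM against 7455, all below, and the median reads of a cell were 2231998, 2499821 and 1909698 against 1227464, all above. The part of these in the result was not tested.

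In Gfi1-only cells, compared at the limit of 30 reads because the Control set had 9 such cells at 10 reads, the members did not stand apart from all genes. Their median log2 fold change was 0.21 and that of all 17066 genes 0.22, and before adjustment 3 members on the higher and 1 on the lower side had p below 0.05, beside 15.3% of all genes. edgeR called 0 genes, with a smallest adjusted p of 0.194, and DESeq2 called 1482 (8.68%), among them 3 members on the higher and 1 on the lower side. Ldha stood at 851, 701 and 816 CPM against 764 (log2 fold change 0.08) and Slc2a1 at 27.2, 25.8 and 30 against 32.5. Slc16a3 stood at 19.1, 17.4 and 34.1 CPM against 9.22 (log2 fold change 1.38, edgeR unadjusted p = 0.0670), above the Control in this class too. Ldhb stood at 45.9, 61.7 and 50.7 CPM against 102, with a log2 fold change of -0.92 (edgeR unadjusted p = 0.0150). Pdk3 stood at 82.6, 82.8 and 78.9 CPM against 46.0 (log2 fold change 0.85, edgeR unadjusted p = 0.0103). The other 2 higher members, Eno3 and Slc2a3, had 0 and 2 reads in the 10 Control cells, so no fold is given for them. Slc16a3 was also uneven in Control cells of this class. At the limit of 10 reads its median there was 0, and 1 of the 9 cells held 10 or more reads. Leaving out BCR-ABL set 2 put 6 members on the higher and 1 on the lower side, beside 19.7% of all genes. Leaving out set 1 or set 4 put 3 and 1 there each time, beside 11.1% and 11.7%. In this class the S phase sums were 2467, 2246 and 2365 CPM against 2938, the monocyte-primed sums 4357, 4315 and 4187 against 2522, and the median reads of a cell 1649313, 1470432 and 1471607 against 902874. Their part in the result was not tested.

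The difference between the effects in Gfi1-only and mixed cells was tested with an interaction term, on sums of at least 5 cells. For Ldha it was -0.63 on the log2 scale (SE 0.19, edgeR unadjusted p = 0.0245, edgeR adjusted p = 0.452), the effect in mixed cells being the larger. Pdk1 and Pdk3 had interaction values of 0.95 and 1.07, and Slc2a3 and Eno3 rested on the Control cells with few reads. Before adjustment 4 of the 32 members on the positive and 1 on the negative side had p below 0.05, beside 9.86% of 17882 genes. edgeR called 0 genes, with a smallest adjusted p of 0.406, and DESeq2 called 663 (3.71%), among them 1 member on each side.

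In single cells the same order was visible. The median of Ldha in thinned cells was 424, 370.5, 458 and 481 reads in the Gfi1-only cells of sets 1, 2, 4 and Control. In mixed cells it was 1019.5, 605, 818 and 484, and in Irf8-only cells of sets 1, 2 and Control 1058, 883 and 542. Control cells of the 3 classes therefore had nearly the same median Ldha, and BCR-ABL cells did not. Slc16a3 was present at 10 or more reads in 36 of 62 Gfi1-only and 5 of 13 mixed cells of set 4, in 15 of 37 and 4 of 10 of set 1, in 6 of 16 and 8 of 21 of set 2, and in 1 of 9 and 4 of 26 of the Control set. In Irf8-only cells it was 6 of 15 in set 1, 5 of 13 in set 2 and 3 of 51 in the Control set. Its median was 0 reads in the Gfi1-only and mixed cells of set 2, in the mixed cells of set 4 and in every class of the Control set. G6pdx had medians of 84, 44, 60 and 88 reads in Gfi1-only cells and of 170.0, 149 and 220.0 in Irf8-only cells of sets 1, 2 and Control.

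**Figure D5:**
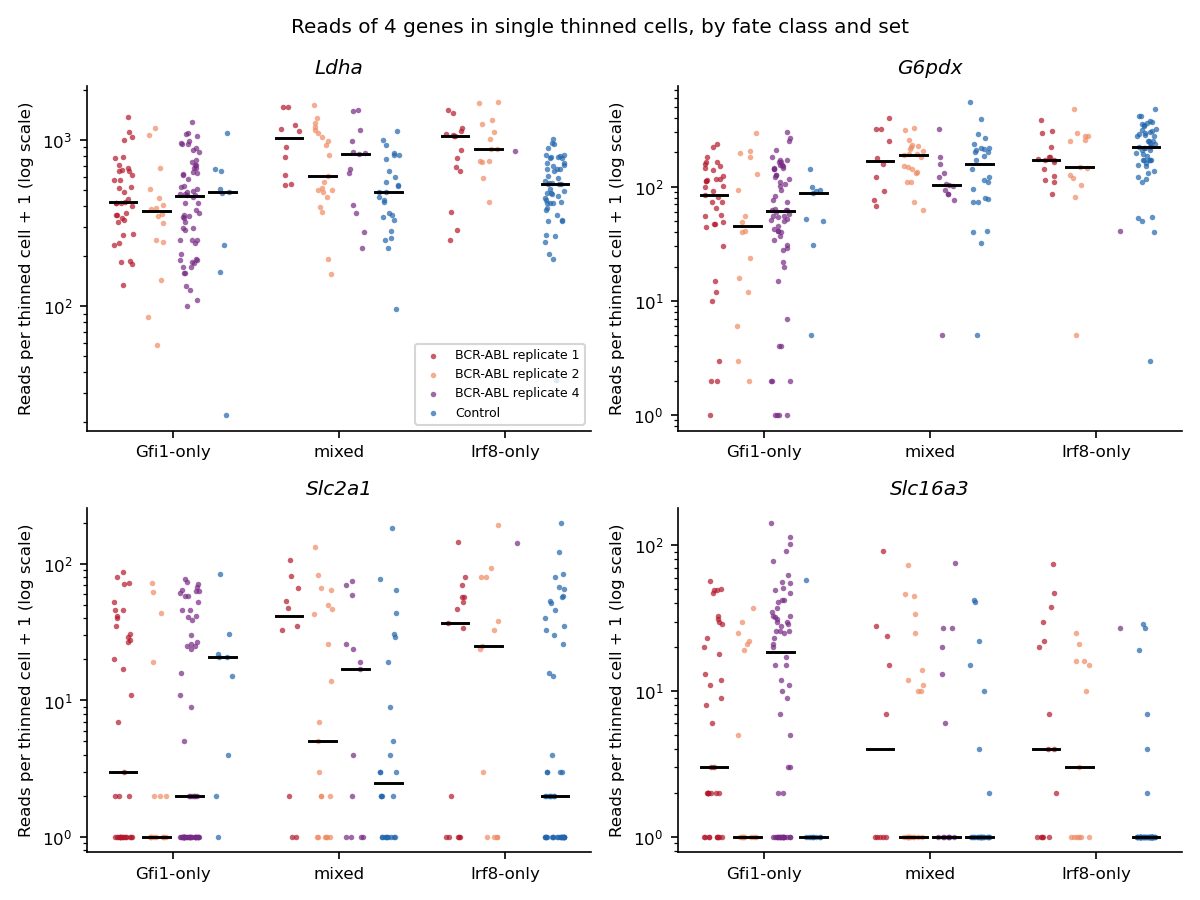
Reads of Ldha, G6pdx, Slc2a1 and Slc16a3 per thinned cell plus 1 (vertical log axis) by fate class and set, 1 point a cell, with the median as a black line where a class has 5 or more cells. Median Ldha is 1058 reads in the Irf8-only cells of BCR-ABL set 1 and 542 in those of the Control set. The lone Irf8-only cell of BCR-ABL set 4 has no median.

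Across single cells some pairs of members had a positive correlation in every set and others did not. Spearman's rho was computed within each set over 65, 54, 81 and 90 thinned cells for the 27 members with reads in at least 25% of the thinned cells of every set. It is given without a test, since cells of a set are not independent samples of a condition. Of 351 pairs 161 had a positive rho in all 4 sets, and the share over pairs of all genes was not computed. The closest pair was Tpi1 and Ldha, with rho of 0.65, 0.72, 0.66 and 0.59 in sets 1, 2, 4 and Control. Pfkl and Pkm had 0.53, 0.61, 0.63 and 0.43, and Tpi1 and Pkm 0.57, 0.74, 0.42 and 0.50. Tkt and Pkm had 0.35 to 0.61. These are among the closest pairs, and other enzymes of the pathway were less close: Gapdh and Ldha had 0.10, 0.46, 0.49 and -0.03. Tpi1, Pkm and Ldha act between triose phosphate and lactate, and Pfkl and Tkt act upstream of them.

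The same measure was taken against fate genes and cell cycle genes. Over the 3 BCR-ABL sets, 17 of 27 members had a negative rho with Gfi1 in every set and 3 a positive one. With Irf8, 19 had a positive rho in every BCR-ABL set and 3 a negative one. In the Control set 13 had a negative and 14 a positive rho with Gfi1, and 12 a negative and 15 a positive one with Irf8. The same shares over all genes were not computed, so these counts do not set the members apart from other genes. Ldha had rho with Gfi1 of -0.46, -0.56 and -0.39 in sets 1, 2 and 4 and of -0.06 in the Control, and with Elane, neutrophil elastase, of -0.66, -0.52, -0.53 and -0.29. G6pdx had rho with Irf8 of 0.54, 0.45, 0.21 and 0.54, so this relation was there in the Control set too. Hk3 had rho with Elane of 0.41, 0.41, 0.18 and 0.06, and Gpi1 with Mpo, the myeloperoxidase of primary granules, of 0.48, 0.55, 0.55 and 0.53. With the summed S phase genes Ldha had rho of 0.58, 0.64, 0.55 and 0.48 and Pkm of 0.43, 0.61, 0.45 and 0.46, while Hk3 had -0.01, -0.27, -0.17 and 0.04 and Ldhb -0.15, -0.04, 0.18 and -0.01. All values come from cells at the same depth, where a gene can gain reads only as others lose them.

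Of 52 other genes of these pathways, chosen by name, 44 were tested over all kept cells. Of these 23 were positive and 21 negative, and 4 on the higher and 0 on the lower side had p below 0.05 before adjustment. This was beside 7.18% of all genes, and the median log2 fold change was 0.06. Pgm1, a gene of the phosphoglucomutase family, stood at 95.5, 77.8 and 105 CPM against 47.5 (log2 fold change 0.98, SE 0.23). Gpd2, the mitochondrial glycerol 3-phosphate dehydrogenase, stood at 71.4, 73 and 62.5 CPM against 38.9, and Rpe, a pentose phosphate epimerase, at 135, 115 and 114 against 79.6. Ldhd, a lactate dehydrogenase for D-lactate, had 0 CPM in the Control set and at most 1.22 elsewhere. Between Gfi1-only and Irf8-only cells 38 were tested, and before adjustment p was below 0.05 for 1 on the higher side (Fbp1, a gluconeogenic phosphatase) and 3 on the lower, beside 13.4% of all genes, so their share was no larger than the background. The latter were the transporter Slc2a6 (1.21 and 15.1 CPM in set 1, 0.266 and 30.9 in set 2), the malic enzyme Me2 and Pdhx, a subunit of pyruvate dehydrogenase.

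Of 19 genes of the HIF1 pathway and its known targets, all tested over all kept cells, 11 were positive and 8 negative, and before adjustment 2 on the higher and 0 on the lower side had p below 0.05, beside 7.18% of all genes. Vegfa, the vascular growth factor, stood at 4.38, 5.60 and 5.07 CPM against 1.73, and Mxi1, a MYC antagonist, at 46.3, 53.9 and 53.3 against 33.7. Egln1 and Vhl, which mark HIF1 for destruction, had log2 fold changes of -0.63 and -0.47 (edgeR unadjusted p = 0.0893 and 0.0919). Egln2 and Egln3, of the same family as Egln1, went the other way over all kept cells, with log2 fold changes of 0.27 and 0.35. Between Gfi1-only and Irf8-only cells 17 were tested. Before adjustment p was below 0.05 for 2 on the higher side, the mitophagy gene Bnip3l (83.9 and 33.8 CPM in set 1, 56.8 and 31.8 in set 2) and Egln3. On the lower side it was so for 1, P4ha1, a prolyl hydroxylase of collagen, beside 13.4% of all genes. Egln1 had the next smallest p there, with a log2 fold change of 0.97 (edgeR unadjusted p = 0.0628). The median log2 fold change was 0.24 between BCR-ABL and Control, where it was 0.05 over all genes, and 0.20 between the classes, where it was 0.03. At the class limit of 30 reads, with the Control set included, 18 were tested, 9 positive and 9 negative. Their median there was 0.02, and that of all genes -0.05.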

How the data were processed

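Reads of 384 wells had been mapped with GSNAP to mm10 and counted per gene with HTSeq (0.5.3p3), per the submitters' processing notes. The deposited values are counts per gene, in 1 table for each set with 1 column a well. The sources used here give neither the annotation release nor the strand setting. Symbols and exon lengths came from GENCODE vM21, which matched 45143 of 46078 gene IDs. A gene's length joins all its annotated exons, and the isozyme shares depend on it too. On average 44.9% of reads fell on genes, and spike-in and summary rows were left out.

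Wells with at least 50000 reads and 1000 genes were kept: 323 cells with 50434 to 4758711 reads on genes. Counts were summed per set, or per set and fate class with at least 10 cells, and tested with edgeR 4.0.16 (TMM, quasi-likelihood, R 4.3.3) over all genes with Benjamini-Hochberg adjustment at 0.05. Classes and cell shares used cells thinned to 674952 reads, which kept 290 cells and left out 33. Intervals are exact 95% binomial (scipy 1.17.1). There are no molecular identifiers, so intervals cover counting error only. The set was a block in the comparison of classes, because both classes come from the same sorted set. DESeq2 1.42.0, limma 3.58.1, RLE size factors, other filters, thinned sums and left-out sets were alternatives. The sums of at least 5 cells, the sets left out and DESeq2 at 30 reads, and the fit without 4 cells of other lineages were chosen after seeing the data. The scripts were tested on simulated data with a smaller spread between sums than these data have. That test therefore does not show how the fits behave at the spread found here.

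The Control set had 9 Gfi1-only cells, so 3 steps could not be run as planned. The comparison within Gfi1-only cells uses the limit of 30 reads, the interaction uses sums of at least 5 cells, and sets were left out of the comparison of classes at 30 reads. Copies are annotated transcripts at least 95% identical over at least 200 bases. All members are accounted for; those with the 6 smallest p over kept cells and between classes, the isozyme groups and Hif1a have their value in every set, and each other list is named by its 4 smallest p. Members and lists were chosen with earlier results of these data known.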

Additional observations from a re-analysis of the deposited data

Results flagged for a closer look

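For 5 members the Control set lay on the opposite side of both BCR-ABL sets in the ratio of Gfi1-only to Irf8-only cells, at the class limit of 30 reads. The share of all genes with that pattern was not computed, so the count does not set the members apart from other genes. The log2 ratio of Slc2a1 was 0.16 in the Control set and -0.87 and -1.66 in BCR-ABL sets 1 and 2. Hk1 had 0.31 against -0.18 and -1.02, and Slc16a1 had 0.53 against -0.31 and -1.25. Tkt had 0.12 against -0.03 and -0.32, the smallest of these gaps. Hk3 ran the other way, with -0.24 in the Control set and 0.54 and 0.45 in the BCR-ABL sets. These differences between sets were not tested, and the Control class of Gfi1-only cells has 10 cells.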

How the results depend on the processing

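DESeq2 called more genes than edgeR, which called 0 in every comparison named here at its main setting: 557 over all kept cells, 1105 between classes, 1482 within Gfi1-only cells, 276 within mixed cells and 663 for the interaction. At the class limit of 30 reads edgeR called 1 gene and DESeq2 1144 between classes. The cause was not tested.

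Without the replicate block, edgeR called 0 genes between classes, with 2 members on the higher and 8 on the lower side below 0.05 before adjustment (1153 and 1068 of 14166 genes), and Pfkfb4 turned to 0.80. The log2 fold change of Slc2a3 between classes turned to -1.23 at 30 reads, -1.25 there with DESeq2 and -0.75 with sums of at least 5 cells, where Tkt turned to 0.01. Leaving out a set gave ranges that crossed 0 over all kept cells for Slc2a3 (-0.42 to 0.04), Hk1 (-0.38 to 0.07), Pfkl (-0.22 to 0.11), Pfkp (-0.01 to 0.31), Pfkfb4 (-0.25 to 0.72), Aldoc (-4.30 to 1.64) and Pgk1 (-0.09 to 0.02). Between classes at 30 reads the ranges were -2.59 to 0.06 for Slc2a3, -0.61 to 0.06 for Hk1, -0.46 to 0.02 for Hk2, -1.07 to 0.32 for Pfkfb4, -3.70 to 0.08 for Eno3, -0.79 to 0.11 for Slc16a1, -0.06 to 0.48 for Slc16a3, -0.18 to 0.05 for Tkt and -0.05 to 0.15 for Taldo1. Over all kept cells Aldoc was -0.92 with limma, and Pgam1 -0.00 with thinned cells.

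The difference in isozyme share, BCR-ABL mean minus Control, was -0.2 points for Hk2 and 3.1 for Pfkp and 7.8 for Eno1 with thinned cells. With reads not divided by length it was 2.5 for Pfkm, 2.1 for Pfkp, 4.2 for Eno1 and 3.5 for Ldha. For single members 562 values kept their direction and side of the threshold, 24 turned, 16 passed it and 1 moved; since edgeR called 0 genes at the main settings, staying on the same side says nothing about stability. Few cells carry the reads of Aldoc, Eno3 and Slc2a3.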
